A study of Mus musculus with 9 samples.

Results

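The genes of the NRF2 and glutathione defence described here were followed through every library of a mouse study of colitis and diet. They are the 10 genes of 55468 in the expression table whose symbol is Slc7a11, Gclc, Gclm, Gpx2, Txnrd1, Srxn1, G6pdx, Nqo1, Hmox1 or Osgin1. The study measured total RNA of the mouse intestinal tract in 9 conditions with 1 library each. In 8 of them DSS (dextran sulfate sodium), which damages the gut lining, was offered in the drinking water from day 18. At day 28, R had eaten a normal diet, 1K a diet short of methionine, 2K a diet short of tryptophan and niacin, and 3K a diet short of all 3 nutrients. At day 33, RR had eaten the normal diet throughout, and 1KR, 2KR and 3KR had been moved at day 28 from the matching deficient diet to the normal one. C had the normal diet without DSS and was collected at day 34. The sources used here give neither strain, sex and age, nor the stretch of gut taken, nor whether a library is 1 animal or several. With 1 library per condition there is no spread between replicates, so each difference between 2 libraries describes those libraries and carries no test.

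NRF2, encoded by Nfe2l2, is a transcription factor that KEAP1 holds in the cytoplasm and marks for breakdown. Oxidants and electrophiles modify KEAP1, and NRF2 then enters the nucleus, pairs with a small MAF protein and binds the antioxidant response element in front of its target genes, a site that BACH1 can occupy as a repressor. The targets import cystine, build and recycle glutathione and thioredoxin, supply NADPH, and break down heme and quinones, and in the gut they guard an epithelium exposed to food, bile and microbes.

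The core of the antioxidant response element was searched in the promoter windows of these genes, because the element is the feature that NRF2 targets are known to share. Both strands were searched for each written form of it, TGACNNNGC and TGAGNNNGC, and some matches to the second also hold the AP-1 element TGAGTCA. RefSeq windows on GRCm38.p6, from 250 bases before to 50 bases after the start site, were at hand for 8 of the 10 genes, in 10 windows, and not for Hmox1 and Gclc. A match was found for 6 of the 8 genes (Slc7a11, Gclm, Txnrd1, Srxn1, G6pdx and Osgin1), and these letters were not in the windows of Nqo1 and Gpx2. Of all 32851 promoter windows, 12.4% held the first form, 17.6% the second and 27.8% either, so a single match is common. Srxn1 had 3 matches, a number reached by 0.630% of windows. The following stretches are shown because they hold the matches that lie outside annotated exons, with the 9 matched bases in capitals, 5′ to 3′ on the strand of the gene.
Srxn1, chr2:152105349-152105493, plus strand: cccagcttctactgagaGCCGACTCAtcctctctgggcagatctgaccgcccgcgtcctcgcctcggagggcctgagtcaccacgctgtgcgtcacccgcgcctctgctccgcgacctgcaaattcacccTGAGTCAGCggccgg
Osgin1, chr8:119437032-119437072, plus strand: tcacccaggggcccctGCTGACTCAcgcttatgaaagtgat
Gclm, chr3:122245407-122245447, plus strand: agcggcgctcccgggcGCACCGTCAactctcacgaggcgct
Slc7a11, chr3:50443686-50443726, minus strand: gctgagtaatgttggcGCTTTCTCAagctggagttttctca
Txnrd1, chr10:82859098-82859138, plus strand: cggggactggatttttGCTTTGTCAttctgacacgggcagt
The second capital run of Srxn1 and the run of Osgin1 read TGAGTCAGC on one strand or the other and so hold the AP-1 element. The Txnrd1 match was in 1 of its 3 windows. The matches of G6pdx and the last of Srxn1 lie in exons and are given by position in the map of matches.

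**Figure D1:**
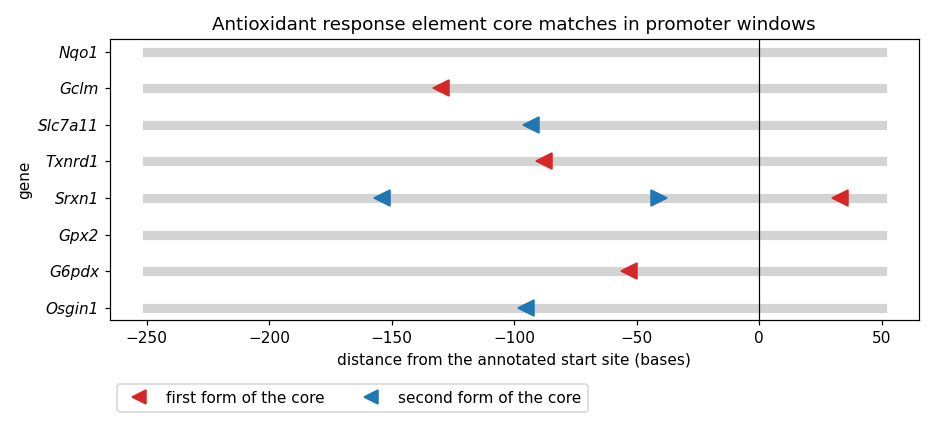
Matches to the antioxidant response element core in the promoter windows of 8 genes, by distance from the annotated start site in bases. Red marks TGACNNNGC, blue marks TGAGNNNGC, an arrow to the right marks the strand of the gene and an arrow to the left the other strand; Txnrd1 is drawn by its window with a match. Srxn1 carries 3 matches, and Nqo1 and Gpx2 none.

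Several libraries differed in tissue makeup in ways the labels do not state. The estimated depth was between 14.5 M and 31.7 M fragments, so that 1 FPKM (a fragment count divided by transcript length and by library depth) of a 2 kb transcript stood for 28.9 to 63.5 fragments. All 8 epithelial markers were at 1 FPKM or more in all 9 libraries, with the geometric mean lowest in 2K (234 FPKM) and 3K (279 FPKM) against 338 to 453 FPKM in the others. In 2K, all 7 stomach, all 8 liver and all 8 pancreatic acinar markers were present, at 2.19%, 2.79% and 4.32% of the summed FPKM. In 3K, all 8 acinar markers made up 6.42%, and elsewhere Ctrb1, an acinar protease, was at 9.83 FPKM or less and no stomach marker reached 1 FPKM. The summed neutrophil markers were at 2155 FPKM in 3KR, 175 in 3K and 114 in 2K, and at 1.58 to 11.9 in the other 6. The summed markers of the ileum were at 3838 FPKM in C and 2314 in R but at 188 in RR and 2.45 in 2K, and the colon marker Car1 was at 1151 FPKM in 3KR and at 2.56 or less elsewhere. In such bulk tissue, fewer cells of a type and less RNA per cell cannot be told apart.

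Some of the genes had a wide range of levels and some a narrow one. Highest over lowest level across the 9 libraries was 42.7-fold for Hmox1, 18.0-fold for Gpx2, 16.0-fold for Slc7a11 and 11.3-fold for Nqo1. It was 4.6-fold for Gclc, 4.0-fold for Osgin1, 3.2-fold for Srxn1, 2.9-fold for Gclm, 2.4-fold for G6pdx and 2.0-fold for Txnrd1. On the log2(FPKM + 0.5) scale, the median range was 1.30 over the 17631 genes that averaged 1 FPKM or more, and 4.41% of them ranged as widely as Hmox1 and 65.7% as widely as Txnrd1. The highest values of Hmox1, Gpx2, Slc7a11 and Nqo1 were in 3K, 3K, 3KR and 2K, libraries with the markers of other organs or of neutrophils. Among RR, 1KR and 2KR, highest over lowest was between 1.07 (Srxn1) and 1.56 (Osgin1), against a median of 1.26 for all those genes.

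**Figure D2:**
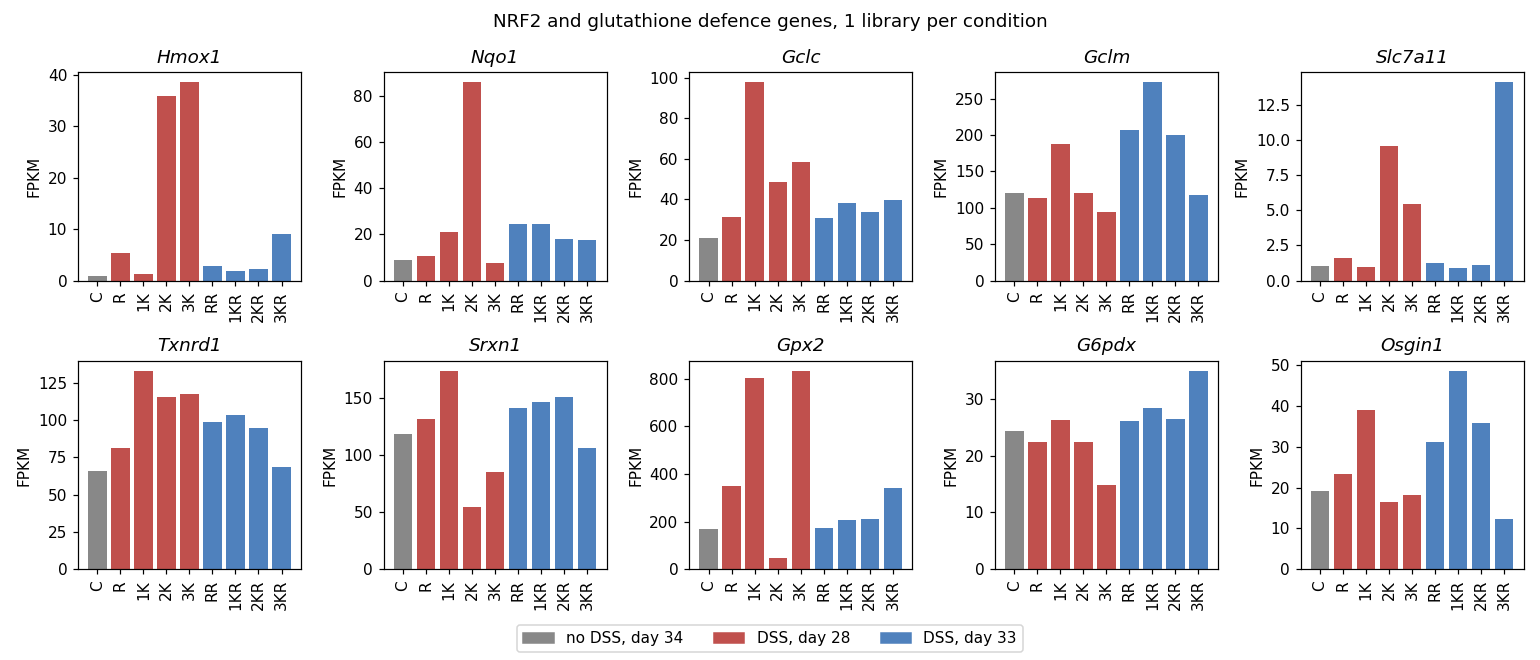
Level of each gene (FPKM, linear axis from 0) in the 9 libraries, 1 bar per library, coloured by DSS and day of collection. Hmox1 stands highest in 2K and 3K, Slc7a11 in 3KR, Nqo1 in 2K and Gpx2 in 1K and 3K, and Txnrd1 and G6pdx vary least.

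Slc7a11 (ENSMUSG00000027737, chromosome 3, 49892526 to 50443614, minus strand, GRCm38) encodes the cystine carrier xCT, which exchanges glutamate for the cystine that glutathione needs. It was at 1.00 FPKM in C, 1.62 in R, 0.979 in 1K, 9.56 in 2K, 5.47 in 3K, 1.25 in RR, 0.887 in 1KR, 1.13 in 2KR and 14.2 in 3KR. Only 3KR, 2K and 3K stood above 2 FPKM, and the other 6 libraries lay close together near 1 FPKM. The log2 difference was 2.24 for 2K minus R, 1.49 for 3K minus R and 3.06 for 3KR minus RR, and -0.52 for 1K minus R. These 3 libraries also had the highest summed neutrophil markers. In 2K 4 of 7 were at 1 FPKM or more, as in 1K, and in 3K and 3KR 5 of 7. S100a8 was at 59.5 FPKM in 2K, 73.4 in 3K and 1273 in 3KR against 5.57 or less elsewhere, while Csf3r was at 36.8 in 3KR but at 1.72 in 2K and 2.01 in 3K against 2.56 in R. Whether those cells had a part in the Slc7a11 level was not tested.

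Gclc (ENSMUSG00000032350, chromosome 9, 77754535 to 77794485, plus strand) encodes the catalytic subunit of glutamate-cysteine ligase, which carries out the rate-limiting step of glutathione synthesis. Its level was 21.2 FPKM in C, 31.4 in R, 98.0 in 1K, 48.5 in 2K, 58.7 in 3K, 31.0 in RR, 38.4 in 1KR, 33.7 in 2KR and 39.8 in 3KR. The 3 deficient libraries of day 28 held the 3 highest values, with the methionine-deficient 1K well above the rest. The log2 difference from R was 1.63 for 1K, 0.62 for 2K and 0.89 for 3K, and from RR it was 0.30 for 1KR, 0.12 for 2KR and 0.36 for 3KR. Against 1K, 1KR was lower by 1.34 on this scale (-1.34). With FPKM rescaled to a common sum over protein-coding genes outside the organ lists, 1K minus R was 1.09.

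Gclm (ENSMUSG00000028124, chromosome 3, 122245557 to 122270732, plus strand) encodes the modifier subunit of the same ligase. Across the libraries it was at 120.3 FPKM in C, 114 in R, 187 in 1K, 121 in 2K, 94.4 in 3K, 206 in RR, 273 in 1KR, 200.0 in 2KR and 118 in 3KR. The high libraries were 1KR, RR, 2KR and 1K, and no pair compared here was 2-fold apart. The nearest were RR minus R at 0.86 and 3KR minus RR at -0.81. Its promoter match to the element core is the one shown above. The ratio of Gclm to Gclc was 5.68 in C, 3.62 in R, 1.91 in 1K, 2.49 in 2K, 1.61 in 3K, 6.66 in RR, 7.12 in 1KR, 5.93 in 2KR and 2.96 in 3KR. The ratio was thus lowest in the 3 deficient libraries of day 28 and highest in 3 libraries of day 33, so the ligase subunits did not keep one proportion.

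Gpx2 (ENSMUSG00000042808, chromosome 12, 76792333 to 76795554, minus strand) encodes the glutathione peroxidase of the gut epithelium, which reduces hydroperoxides with glutathione. The values were 168 FPKM in C, 348 in R, 804 in 1K, 46.3 in 2K, 834 in 3K, 172 in RR, 208 in 1KR, 213 in 2KR and 340.2 in 3KR. Both day-28 diets without methionine stood at the top, and 2K, with the stomach, liver and acinar markers, stood alone at the bottom. The log2 difference from R was 1.21 for 1K, 1.26 for 3K and -2.90 for 2K. With the protein-coding rescaling, 1K minus R was 0.66 and no longer 2-fold. R stood 1.05 above C, RR 0.04 above C (-0.20 with that rescaling), and RR minus R was -1.02, or -0.87 with FPKM divided by the epithelial markers. Gpx1, the widely expressed peroxidase, ran another course: Gpx2 over Gpx1 was 9.24 in 1K, 4.54 in 3K, 2.63 in R, 1.61 in 3KR and 1.12 in C, but 0.942 in 2KR, 0.801 in RR, 0.788 in 1KR and 0.163 in 2K. Gpx2 made up between 8.32% (2K) and 65.4% (3K) of the summed FPKM of the 10 genes.

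Txnrd1 (ENSMUSG00000020250, chromosome 10, 82833951 to 82897712, plus strand) encodes the cytosolic reductase that recycles thioredoxin with NADPH. It measured 65.6 FPKM in C, 81.6 in R, 133 in 1K, 115 in 2K, 118 in 3K, 98.8 in RR, 104 in 1KR, 94.7 in 2KR and 68.4 in 3KR. As for Gclc, the 3 deficient libraries of day 28 were the highest and C the lowest, but in no pair was the difference 2-fold. It came to 0.71 for 1K minus R, 0.50 for 2K minus R and 0.53 for 3K minus R on the log2 scale. Divided by the geometric mean of the epithelial markers, an alternative added after the values were seen, 2K minus R became 1.33 and 3K minus R 1.11, and for Gclc these became 1.45 and 1.47. The duodenal markers Fabp1, Gip, Gata4, Cybrd1 and Slc40a1, summed, were at 3186 FPKM in 1K (Fabp1 2941), 2166 in 1KR, 1739 in RR, 1508 in 2KR, 1416 in 3K, 816 in 2K, 193 in R, 169 in 3KR and 123 in C. In 1K minus R, 3 of these 5 markers were 2-fold higher and 2 lower, against 7.17% and 8.63% of all genes. The lower ones were Cybrd1, at 0.863 FPKM against 2.87, and Slc40a1, at 4.53 against 9.61. The sum was thus high in 1K, as Gclc and Txnrd1 were. It was higher in RR, 1KR and 2KR than in 2K and 3K, where both genes were higher. The part of gut region in the levels of Gclc and Txnrd1 was not tested.

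Srxn1 (ENSMUSG00000032802, chromosome 2, 152105516 to 152111376, plus strand) encodes sulfiredoxin, which restores overoxidised peroxiredoxins. It stood at 119 FPKM in C, 132 in R, 174 in 1K, 54.8 in 2K, 85.7 in 3K, 142 in RR, 147 in 1KR, 152 in 2KR and 107 in 3KR. The level was lowest in 2K and 3K. Its log2 range of 1.66 was above the median of 1.30, and 35.1% of the genes that averaged 1 FPKM or more ranged as widely. The log2 difference from R was -1.26 for 2K, -0.62 for 3K and 0.40 for 1K (-0.14 with the protein-coding rescaling). Those 2 libraries also had the lowest epithelial markers, and divided by the epithelial mean 2K minus R was -0.43, less than 2-fold.

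G6pdx (ENSMUSG00000031400, chromosome X, 74409483 to 74429194, minus strand) encodes glucose-6-phosphate dehydrogenase, which makes NADPH at the entry of the pentose phosphate pathway. Its FPKM was 24.2 in C, 22.4 in R, 26.2 in 1K, 22.4 in 2K, 14.7 in 3K, 26.2 in RR, 28.4 in 1KR, 26.3 in 2KR and 34.9 in 3KR. Apart from 3K at the bottom and 3KR at the top, the libraries lay between 22.4 and 28.4 FPKM. The only pair 2-fold apart was 3KR minus 3K, at 1.22 on the log2 scale, or 0.95 with the epithelial scaling.

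Nqo1 (ENSMUSG00000003849, chromosome 8, 107388225 to 107403206, minus strand) encodes the quinone reductase that is the usual readout of NRF2 activity. Readings were 9.01 FPKM in C, 10.7 in R, 21.0 in 1K, 86.3 in 2K, 7.62 in 3K, 24.4 in RR, 24.5 in 1KR, 18.2 in 2KR and 17.7 in 3KR. The library 2K stood far above all others, while 3K, whose diet lacked the same nutrients and methionine as well, was the lowest. The log2 difference from R was 2.96 for 2K, 0.94 for 1K and -0.46 for 3K (0.09 with the epithelial scaling). RR stood 1.39 above C and 1.16 above R (0.97 with the protein-coding rescaling), and 1KR, 2KR and 3KR lay within 0.45 of RR. The stomach and liver markers were high in the same single library: Tff1, a stomach peptide, was at 8134 FPKM and Alb, liver albumin, at 15459 FPKM in 2K, against at most 0.775 and 167 FPKM elsewhere. Their part in the Nqo1 level was not tested.

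Hmox1 (ENSMUSG00000005413, chromosome 8, 75093621 to 75100589, plus strand) encodes heme oxygenase, which splits heme into biliverdin, iron and carbon monoxide and is strongly made in macrophages. It was listed at 0.906 FPKM in C, 5.30 in R, 1.35 in 1K, 35.9 in 2K, 38.6 in 3K, 2.77 in RR, 1.92 in 1KR, 2.15 in 2KR and 9.09 in 3KR. The 2 libraries without tryptophan and niacin in the diet at day 28 were far above the rest, followed by 3KR and R. The log2 difference from R was 2.65 for 2K, 2.75 for 3K and -1.65 for 1K. R stood 2.05 above C, and RR stood 1.22 above C, or 0.98 with 1 added to each value in place of 0.5. Against the same diet at day 28, 2KR was lower by 3.78 (-3.78) and 3KR by 2.03 (-2.03), and 3KR stayed 1.55 above RR.

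Markers of macrophages and pancreas varied beside Hmox1. The summed macrophage markers, with 7 or 8 of 8 at 1 FPKM or more in each library, were at 149 FPKM in C, 400.4 in R, 101 in 1K, 256 in 2K, 295 in 3K, 297 in RR, 179.9 in 1KR, 257 in 2KR and 272 in 3KR. The sum was higher in R than in C and lower in 1K than in R. Its largest part in R was Lyz2, at 259.9 FPKM there, 108 in 2K and 118 in 3K. Mrc1, in contrast, was at 6.34 FPKM in R, 13.0 in 2K and 13.7 in 3K, and Cd163 at 2.14 FPKM in R and 6.77 in 2K, and higher still in 3K. In 3K minus R, 2 of the 8 were 2-fold higher and 1 lower (median 0.19), and in 2K minus R 1 was higher and 1 lower (median -0.10). The acinar markers, at 32959.6 FPKM in 2K and 42385 in 3K against 4.41 in R with Ptf1a at 0, were high in the same libraries as Hmox1. The part of either cell type in the Hmox1 level was not tested.

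**Figure D3:**
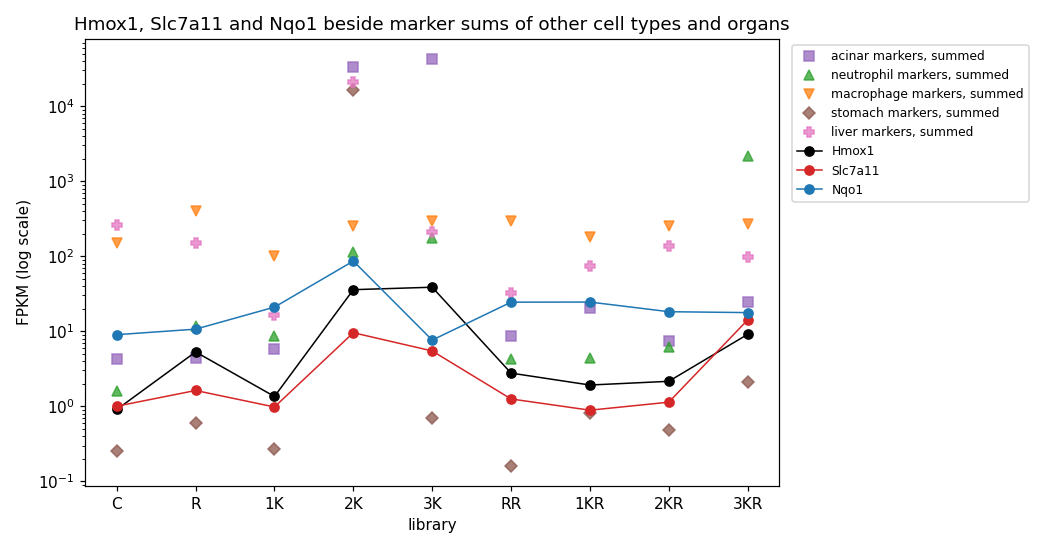
Levels of Hmox1, Slc7a11 and Nqo1 (joined points) and summed markers of 5 other cell types and organs (symbols) in each library, in FPKM on a log axis. Acinar markers reach 32959.6 FPKM in 2K and 42385 FPKM in 3K, stomach markers reach 16714 FPKM in 2K, and neutrophil markers reach 2155 FPKM in 3KR.

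Osgin1 (ENSMUSG00000074063, chromosome 8, 119434124 to 119446256, plus strand) encodes an oxidative stress-induced growth inhibitor. The levels were 19.2 FPKM in C, 23.3 in R, 39.0 in 1K, 16.5 in 2K, 18.3 in 3K, 31.2 in RR, 48.7 in 1KR, 35.8 in 2KR and 12.3 in 3KR. The 2 highest were 1KR and 1K, and the 3 lowest were 3KR, 2K and 3K. The log2 difference was 0.73 for 1K minus R, 0.64 for 1KR minus RR and -1.30 for 3KR minus RR. Summed enterocyte markers were also lower in 3KR (3825 FPKM) than in RR (10575 FPKM), and their part in the Osgin1 level was not tested.

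Set side by side, the 12 pairs of libraries gave few members at least 2-fold apart with at least 1 FPKM in either library. Pairs with R share that library, as do pairs with RR and with C, so they are not independent of each other. The first question, which genes differ with DSS on the normal diet, gave 2 of 10 higher in R than in C (Hmox1 and Gpx2) and 0 lower, where 4.43% of all genes were higher and 3.22% lower. RR against C had 2 higher (Hmox1 and Nqo1) and 0 lower, against 6.71% and 5.81% of all genes. R and C differ in the day of collection as well as in DSS. The median log2 difference of the 10 genes was 0.29 for R minus C and 0.56 for RR minus C, beside 0.01 and -0.02 for all genes. The Hmox1 difference was in the same direction in both, and that of Gpx2 was 1.05 in R and 0.04 in RR. RR minus R had 1 member higher (Nqo1) and 1 lower (Gpx2), against 5.42% and 5.29% of all genes.

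The second question, which genes differ between the deficient diets and R at day 28, gave sets that overlapped only in part. Diet and tissue makeup cannot be told apart here, as 2K held stomach, liver and acinar markers and 3K acinar markers. In 1K minus R, 2 were higher (Gclc and Gpx2) and 1 lower (Hmox1), where 7.17% of all genes were higher and 8.63% lower. In 2K minus R, 3 were higher (Nqo1, Hmox1 and Slc7a11) and 2 lower (Gpx2 and Srxn1), against 14.7% and 14.1%. In 3K minus R, 3 were higher (Hmox1, Slc7a11 and Gpx2) and 0 lower, against 11.6% and 13.4%. The median difference of the members was 0.71, 0.29 and 0.13 for the 3 diets, beside 0.03, 0.02 and 0.00 for all genes. The 10 genes did not share one pattern: Gpx2 lay on opposite sides of R in 2K and 3K, Hmox1 on opposite sides in 1K and in both others, and Nqo1 was high in 2K alone. Rescaling to the protein-coding sum shifted the median of all genes in 1K minus R from 0.03 to -0.48, while Gclc in that pair went from 1.63 to 1.09.

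The last question, what remained after 5 days back on the normal diet, gave 0 of 10 members 2-fold apart in 1KR minus RR, where 2.47% of all genes were higher and 3.51% lower. The same held for 2KR minus RR, against 2.67% and 3.67%. In 3KR minus RR, 2 were higher (Slc7a11 and Hmox1) and 1 lower (Osgin1), against 11.4% and 9.73%, and Gpx2 lay just under the fold at 0.98, or at 1.10 to 1.15 under the 3 other scalings. Of the same diet at both days, 1KR minus 1K had 0 higher and 2 lower (Gclc and Gpx2) of the 9 genes that reached 1 FPKM, all but Slc7a11, against 6.57% and 7.79%. The pair 2KR minus 2K had 3 higher (Gpx2, Srxn1 and Osgin1) and 3 lower (Hmox1, Slc7a11 and Nqo1), against 13.5% and 19.0%. With the epithelial scaling, Srxn1 and Osgin1 in this pair were at 0.53 and 0.18. The pair 3KR minus 3K had 3 higher (Slc7a11, G6pdx and Nqo1) and 2 lower (Hmox1 and Gpx2), against 13.3% and 11.7%. The shares of members are of 10 genes only, and in 1KR and 2KR their levels were near those of RR.

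**Figure D4:**
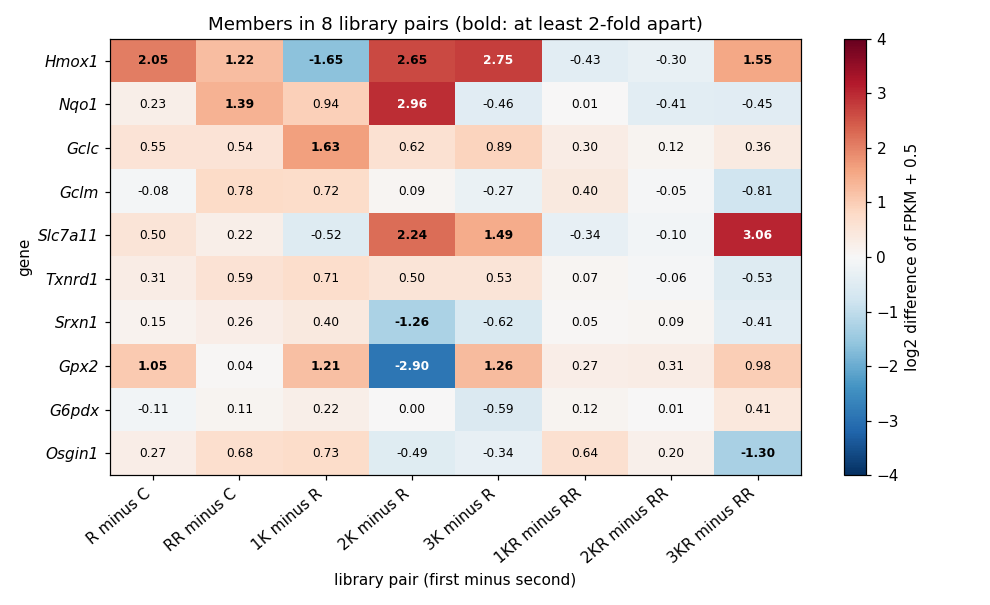
Log2 difference of FPKM + 0.5 for each gene (vertical) in 8 library pairs (horizontal), red where the first library is higher and blue where it is lower, with values of 1 or more in size in bold. The widest differences are Slc7a11 in 3KR minus RR (3.06), Nqo1 in 2K minus R (2.96) and Gpx2 in 2K minus R (-2.90).

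The one test the design allows treats the 8 DSS libraries as a layout of day, methionine, and tryptophan with niacin, and assumes that both shortages add up, which leaves 2 residual degrees of freedom. Its standard errors and p-values therefore rest on departures from that additive layout, moderated over genes, and not on spread between replicates. In this limma fit of 17577 genes, 0 of 10 members passed a Benjamini-Hochberg adjusted p of 0.05 in any of the 5 terms. For tryptophan and niacin deficiency at day 28, 33 genes did, 0.188% of those tested. The day term and the other 3 diet terms had 0 calls (0%) by limma over all genes, while 561 genes for day, 563 for methionine at day 28, 218 for methionine at day 33 and 389 for tryptophan and niacin at day 33 had an unadjusted p under 0.05. The counterpart for tryptophan and niacin at day 28 was 3380 genes. Leaving out any 1 library brought its 33 calls to 0.

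Hmox1 had the smallest adjusted p among the members, 0.150 in limma, with a coefficient of 3.53 ± 0.72 (SE) for tryptophan and niacin deficiency at day 28. That coefficient is the mean of 2K minus R (2.65) and 3K minus 1K (4.40), both positive. Without 2K it equals 3K minus 1K, so that fit is no separate check. Srxn1 had -1.14 ± 0.28 and an adjusted p of 0.169, and Slc7a11 had 2.13 ± 0.88 and an adjusted p of 0.291, in the same limma term. Of the genes on the lists used here, the 7 acinar markers tested were the only ones to pass in it. For methionine deficiency at day 28, Gpx2 had 2.68 ± 0.76, an unadjusted p of 0.0204 and an adjusted p of 1 in limma. That coefficient was 1.21 without 2K or without 3K and 4.16 without R or without 1K, so its size turned on which library was left out. Gclc had 0.95 ± 0.39 and an unadjusted p of 0.0652 in the same limma fit. At day 33, the smallest adjusted p of a member in limma was 1 for methionine and 0.980 for tryptophan and niacin.

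**Figure D5:**
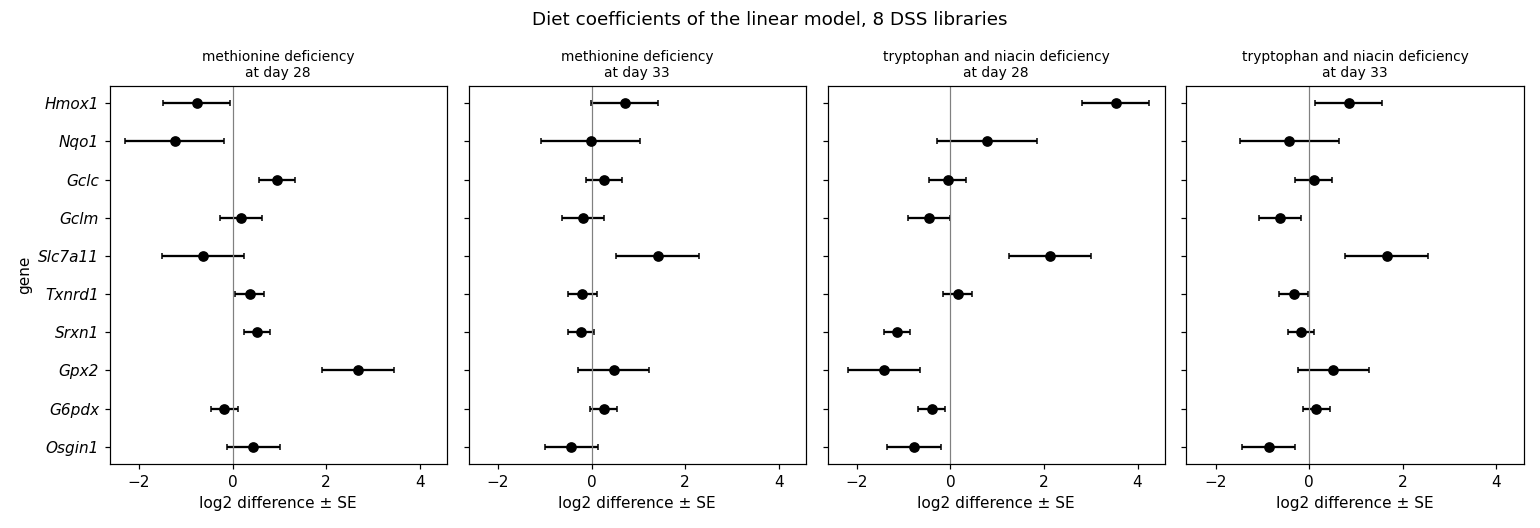
Coefficient of each diet term for the 10 genes (points, log2 difference) with its standard error (bars), from the model of the 8 DSS libraries. Hmox1 at 3.53 for tryptophan and niacin deficiency and Gpx2 at 2.68 for methionine deficiency, both at day 28, lie farthest from 0, and no member passed the adjusted threshold.

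Among the regulators, Nfe2l2 itself was at 63.9 FPKM in C, 70.3 in R, 115 in 1K, 63.7 in 2K, 35.9 in 3K, 133 in RR, 155 in 1KR, 156 in 2KR and 70.2 in 3KR. It was thus highest in RR, 1KR and 2KR and lowest in 3K, and neither 2K nor 3K, with the highest Hmox1, had more Nfe2l2 than R. Keap1 lay between 12.5 and 17.3 FPKM in all 9 libraries. Bach1 was at 56.7 FPKM in 1K, 38.4 in R and 21.0 to 28.6 in the others. Sqstm1, whose protein p62 can displace NRF2 from KEAP1, was at 203 FPKM in 2K and 197 in 3K against 94.1 to 119 elsewhere. Of the 13 regulators, 1 was 2-fold higher and 0 lower in each of 1K, 2K and 3K against R, where 7.17%, 14.7% and 11.6% of all genes were higher. It was Maff, a partner of NRF2, at 12.3, 16.3 and 12.7 FPKM against 5.33. Nfe2, the blood cell relative of NRF2, had the widest range of these genes by fold, from 0.392 FPKM in 1KR to 9.61 in 3KR.

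The rest of the glutathione pathway also differed with the library. Among 19 genes for synthesis, use and turnover, 5 stood at least 2-fold higher and 0 lower in 1K minus R (median 0.49), 5 higher and 3 lower in 2K minus R (median -0.22), and 3 higher and 4 lower in 3K minus R (median -0.16). Of all genes, 7.17% were higher and 8.63% lower in the first of these pairs, 14.7% and 14.1% in the second, and 11.6% and 13.4% in the last. Gss, glutathione synthetase, was at 50.1 FPKM in 1K, 50.9 in 2K and 44.4 in 3K against 27.2 in R. Gsr, which regenerates reduced glutathione, was at 183 FPKM in 3K and 144 in 1K against 99.4 in R and 113 in 2K. The largest difference was that of Anpep, a brush border peptidase that cuts the products of glutathione breakdown, at 262 FPKM in 2K against 3258 in R (-3.63). Slc3a2, the heavy chain that carries xCT to the membrane, was at 262 FPKM in RR, 88.2 in C and 83.8 in 3KR, and so was low in the library where Slc7a11 was highest.

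Among 21 glutathione transferases and related genes, 16 stood at least 2-fold higher and 0 lower in RR minus C (median 1.19), against 6.71% and 5.81% of all genes. There Cbr1, a carbonyl reductase, was at 203 FPKM against 42.4 and Gstm3, a transferase, at 83.8 against 10.9. In R minus C, 0 of the 19 with at least 1 FPKM were 2-fold apart (median 0.03), against 4.43% of all genes higher and 3.22% lower. In 3KR minus RR, 1 was higher and 12 lower (median -1.23), against 11.4% and 9.73% of all genes. The transferases Gstm1 to Gstm4 are close copies, so their separate values are uncertain. Beside them, 2 of the 10 members were 2-fold higher in RR minus C. Summed enterocyte markers were at 3409 FPKM in C, 5254 in R, 10575 in RR and 3825 in 3KR, and the summed ileal markers at 3838, 2314, 188 and 879.7, and the part of gut region and of enterocytes in these counts was not tested.

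Of 14 genes of the thioredoxin and peroxiredoxin system, 2, 4 and 3 were 2-fold higher and 0 lower in 1K, 2K and 3K against R, among them Prdx6, a peroxiredoxin, at 152 FPKM in 3K and 151 in 2K against 53.6. Over all genes, 7.17%, 14.7% and 11.6% were higher and 8.63%, 14.1% and 13.4% lower in the same pairs. The part of the organ RNA in 2K and 3K was not tested. Of the 8 other genes of NADPH supply, 1 was 2-fold higher in 1K minus R and 0 in 2K and 3K minus R. It was Idh1, cytosolic isocitrate dehydrogenase, at 239 FPKM against 64.2.

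Around Hmox1, the 9 other genes of heme and iron had 2 higher and 1 lower in 2K minus R and 1 higher and 0 lower in 3K minus R. The shares of all genes were 14.7% and 14.1% in the first pair and 11.6% and 13.4% in the second. Fth1, the ferritin heavy chain and an NRF2 target, was at 3327 FPKM in 2K and 2085 in 3K against 847 in R and 629.9 in C, and so was high in the same libraries as Hmox1. Slc40a1, the iron exporter ferroportin, was at 150.4 FPKM in 2K and 17.5 in 3K against 9.61 in R. Stomach, liver and acinar markers were high in 2K and acinar markers in 3K, and their part in these levels was not tested. Blvra, which reduces the biliverdin that heme oxygenase makes, was at 4.75 FPKM in 2K and 5.36 in 3K against 5.83 in R, without the pattern of Hmox1. Blvrb, which reduces another form of biliverdin, was at 25.0 FPKM in 2K and 12.2 in 3K against 19.4 in R.

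Genes of oxidant production and removal and sulfur amino acid genes were lists of 10 and 9 genes. In 3KR minus RR, 6 of the 10 genes of oxidant production and removal were 2-fold higher and 1 lower (median 1.68), against 11.4% and 9.73% of all genes. Among the higher were Nos2 at 26.0 FPKM against 3.13, Nox1 at 6.69 against 0.807, and Sod3, which removes superoxide, at 12.9 against 3.20. The lower one was Cat, which removes hydrogen peroxide, at 121 FPKM against 364. Nos2, which makes nitric oxide, was at 95.2 FPKM in R, 17.2 in C, 27.5 in 1K, 0.957 in 2K and 1.72 in 3K, the reverse of Hmox1 in the last 2. Ncf1, a subunit of the phagocyte oxidase, was at 24.7 FPKM in 3KR against 3.93 to 8.34 elsewhere, beside the neutrophil markers named above. Of the 9 genes of cysteine and methionine uptake, synthesis and use, 5 were 2-fold higher and 1 lower in 2K minus R (median 1.79), against 14.7% and 14.1% of all genes. Cbs, which joins homocysteine to serine, was at 206 FPKM against 2.75 and Cth, which releases cysteine, at 130.1 against 15.5. Cdo1 and Csad, which turn cysteine towards taurine, were among the higher ones too, at 484 against 22.5 and 47.8 against 13.5. The summed liver markers were at 21305 FPKM in 2K, and the part of liver RNA was not tested. Cbs was also at 66.3 FPKM in 3K and 38.0 in 3KR, where the liver markers summed to 209 and 96.4 FPKM against 149 in R. In 1K minus R, where methionine itself was lacking, 1 of 9 was higher and 1 lower, against 7.17% and 8.63% of all genes.

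Slc7a11 is also a target of ATF4, the factor of the amino acid response. Of 9 ATF4 targets, 1 was 2-fold higher and 0 lower in 1K minus R (median 0.26), 3 higher and 0 lower in 2K minus R (median 0.92), and 3 higher and 0 lower in 3K minus R (median 0.86). Beside these, 7.17%, 14.7% and 11.6% of all genes were higher and 8.63%, 14.1% and 13.4% lower. In 3KR minus RR, where Slc7a11 differed most, 0 were higher and 1 lower (median 0.12), against 11.4% and 9.73% of all genes. Trib3, a kinase-like target, was at 16.5 FPKM in 1K against 5.14 in R, and at 2.73 in 3KR against 11.6 in RR. Nqo1 is shared with the aryl hydrocarbon receptor, and of that factor's 5 listed targets Aldh3a1 was at 212 FPKM in 2K and at 0.168 or less elsewhere, while Cyp1a1 was at 0.032 in 2K. Stomach and liver markers were also high in 2K alone, and their part in the Aldh3a1 level was not tested.

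The genes whose levels across the 9 libraries were most like a member's were taken by Pearson r of log2(FPKM + 0.5) over the 10547 genes that averaged 5 FPKM or more, as a description. The closest to Hmox1 was Sycn, a protein of pancreatic secretory granules (r = 0.971 over 9 libraries). Slc7a11 lay closest to Cd14, a myeloid receptor (r = 0.983), with Ngp, a neutrophil granule protein, also among its closest 3 (r = 0.975). For Nqo1 the closest was Gsta4, a glutathione transferase (r = 0.975), and for Gclc it was Slc6a6, the taurine carrier (r = 0.982). Gclm was closest to Tmem14c (r = 0.990), Txnrd1 to Entpd7 (r = 0.992), Srxn1 to Cyp4f14 (r = 0.995), Gpx2 to Gp1bb (r = 0.925), G6pdx to Gm24336 (r = 0.955) and Osgin1 to Soat2 (r = 0.982). No member was among the 3 genes most like another. Without 2K, 3K and 3KR, a choice made after the values were seen, the r of these 30 pairs over the other 6 libraries had a median of 0.956, and 21 of them were at 0.9 or more. The r was lowest for Slc7a11 with Dusp1 (0.19). It was 0.704 for Hmox1 with Sycn and 0.787 for Slc7a11 with Cd14, and 0.986 for Gclm with Tmem14c and 0.994 for Txnrd1 with Entpd7. Ranked anew over those 6 libraries, 1 of the 30 pairs was again among the closest 3, Stom with Gpx2.

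Some values could include reads of neighbours, as the sources used here do not say whether the counting used strand. Ikbkg overlaps G6pdx on the other strand and was at 11.6 to 17.6 FPKM, of the order of G6pdx itself. Fntb overlaps Gpx2 (3.84 to 8.41 FPKM) and Gm17494 overlaps Gclm (0.756 to 2.62 FPKM) on the other strand, and Eid3 lies on the strand of Txnrd1 (3.85 to 9.34 FPKM). G6pd2, a copy of G6pdx elsewhere in the genome, was at 0.054 FPKM or less.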

How the data were processed

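Total RNA of the mouse intestinal tract was depleted of ribosomal RNA and made into stranded libraries, 1 for each of 9 conditions, per the labels' protocols. The authors deposited FPKM values for 55468 genes in 9 columns, per the file headers, and the submitters' processing notes name HISAT2, Cuffdiff 2.2.1 and GRCm38; no source used here names the annotation. The values were used as deposited. Depth was estimated from the spacing of low FPKM values of genes with a single transcript, and no counting interval is given. Identifiers were matched to GENCODE M21 for coordinates (55227 of 55468 found).

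Libraries were compared as log2(FPKM + 0.5), and a gene was counted where 2-fold or more apart on that scale and at 1 FPKM or more in one of the pair. A difference on this scale understates the change of low genes. The layout of the 8 DSS libraries was fitted with limma 3.58.1 in R 4.3.3 with a mean-variance trend (genes that averaged 1 FPKM or more, Benjamini-Hochberg adjustment over all 17577) and checked on simulated data. Beside the 10 members, 10 pathway lists and 13 marker lists were described by counts and medians. From each pathway list up to 4 genes per group of comparisons with the largest difference could be named among those with at least 5 FPKM, with Nfe2l2, Keap1 and Bach1 always and the 3 genes most like each member. Gsr, Gss, Gpx1, Blvra, Blvrb, Ncf1, Sod3, Csad, Txnip and further values of named genes were chosen after values were seen. Members and lists were chosen with earlier results of these data known. Alternatives were pseudocounts of 1 and 0.1, no minimum or 5 FPKM, 2 other scalings, a scaling to epithelial markers added after the data were seen, and, for the fit, no trend, common diet effects and leaving out each library.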

Additional observations from a re-analysis of the deposited data

How the results depend on the processing

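Of 823 recomputed member differences, 21 crossed the 2-fold limit and 30 changed sign, 16 of these with the epithelial scaling, none of them above 0.73 in size as first computed. Member counts stayed within 1.5 times in 156 of 168 cases and 82 of 84 medians stayed close. In all 75 recomputed terms of the fit, 0 members were called. This cannot show stability, because as first fitted every term but tryptophan and niacin deficiency at day 28 had 0 calls over all genes. With a pseudocount of 1, and with a minimum of 5 FPKM, RR minus C had 1 member 2-fold higher in place of 2. Under these settings 5.81% and 7.80% of all genes were higher. With FPKM scaled to the protein-coding sum, RR minus R had 0 higher and 2 lower, against 4.15% and 8.12% of all genes. The pair 1K minus R had 1 higher, against 3.17%. Divided by the epithelial markers (added after the data were seen), RR minus R had 0 lower, 2K minus R 5 higher and 1 lower with a median of 1.12, 3K minus R 5 higher, 2KR minus 2K 1 higher and 5 lower with a median of -0.95, and 3KR minus 3K 1 higher. With it, the all-gene median went in 2K minus R from 0.02 to 0.80 and in 3K minus R from 0.00 to 0.56. In 2KR minus 2K that median went from -0.10 to -0.98. Of all genes, 27.6% were then higher in 3K minus R, and 5.36% higher and 48.9% lower in 2KR minus 2K. The share higher in 2K minus R lay between 27.6% and 48.9%, with 6.05% lower. In RR minus R 4.11% were lower, and in 3KR minus 3K 9.98% were higher. The 5 higher in 2K minus R and 5 lower in 2KR minus 2K thus came with a like shift of all genes. The 33 calls for tryptophan and niacin deficiency at day 28 became 20 at a mean of 5 FPKM, 67 without the trend, 1 with common diet effects and 0 without any 1 library. No paired analysis was possible because each group has 1 library, and leaving a library out gives no value for a pair. At the lowest depth, in 3KR, 1 FPKM of a 2 kb transcript was 28.9 fragments, so values near 1 FPKM rest on few fragments.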

Other observations

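Aldh3a1, which oxidises aldehydes and is a target of both NRF2 and the aryl hydrocarbon receptor, was at 212 FPKM in 2K and between 0.020 and 0.168 FPKM in the other 8 libraries. The stomach markers summed to 16714 FPKM in 2K and to 2.13 or less elsewhere, and their part in the Aldh3a1 level was not tested. Akr1b8, an aldo-keto reductase of the conjugation list, was at 72.0 FPKM in 3K, 44.1 in 2K, 18.6 in 3KR and 16.9 in 1K, against 2.03 to 4.38 in C, R, RR, 1KR and 2KR. Txnip, which binds and blocks thioredoxin, was at 985 FPKM in 2K and 967 in 3K against 379 in R, and at 188 in RR.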
